A study of Homo sapiens with 4 samples.

Results

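Keratin, tight junction and desmosome genes were followed in HLE, an established line from a human liver carcinoma, with and without stable expression of CYR61. A list of 43 genes was taken by name, and the 34 with a mean of at least 1 CPM (a gene's counts relative to its library's total, scaled by TMM) over the 4 libraries were kept, of 12698 genes tested and 20286 in the files. They fall into 6 classes by role: 3 simple epithelial keratins, 7 other keratins, 4 claudins, 4 other tight junction genes, 11 desmosome genes and 5 epithelial surface and regulator genes. At the threshold, MARVELD2 lay just inside with a mean of 1.14 CPM, and TJP3 (0.991 CPM) and OCLN (0.979 CPM) lay just outside.

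Both groups were HLE cells grown in the same serum-containing medium without further treatment. One group stably carried the vector (2 libraries), and the other stably expressed CYR61 (2 libraries), a matricellular protein that cells secrete, now named CCN1. Per the series description, each library came from its own culture of the whole stable population, so p-values measure the spread between cultures and not between separately made populations. The promoter driving CYR61 and the number of times each population was made are not stated in the descriptions used here.

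The libraries held 16186991 to 21588805 estimated counts, and the 34 genes took 0.811% to 0.899% of them. CCN1 was at 221 and 218 CPM in the vector libraries and 8091 and 8620 CPM in the CYR61 libraries, which is the direction the labels give. The hepatocyte markers ALB, APOB, APOA2 and TTR had 0 counts in every library, and 8 of 10 hepatocyte markers were under 1 CPM. Summed levels were 16.8 to 17.5 CPM (vector) and 14.8 to 15 CPM (CYR61) for that list, 5.1 to 6.07 and 3.49 to 4.07 CPM for 6 squamous markers, 946 to 1147 and 757 to 895 CPM for 7 biliary markers, 1747 to 2007 and 1532 to 1808 CPM for 8 mesenchymal markers, 1.81 to 2.07 and 2.37 to 2.51 CPM for 4 endothelial markers, and at most 0.589 CPM for 4 leukocyte markers. Of the biliary, squamous and mesenchymal markers 4 each were under 1 CPM. The part of these differences in the results was not tested. Markers at 0 in every library were KDR of the endothelial list and CD3E of the leukocyte list. KRT7 made up nearly all of the biliary sum, and VIM of the mesenchymal sum. TF and HNF4A, at means of 10.6 and 4.32 CPM, made up most of the hepatocyte sum. The libraries of each group also differed in how genes tracked GC content. Across 10378 genes with 5 CPM or more, the Spearman rank correlation of GC content with a library's deviation from the mean was 0.55 (vector 1), -0.33 (vector 2), -0.57 (CYR61 1) and 0.43 (CYR61 2). The comparison was therefore also fitted with this trend removed, and calls that this changes are given beside each result.

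Keratins are the intermediate filament proteins of epithelial cells, and each filament is built from pairs of a type I (acidic) and a type II (basic to neutral) chain. Hepatocytes normally contain a single pair, KRT8 with KRT18, while bile duct cells add KRT7 and KRT19. Tight junctions seal neighbouring cells through claudins and occludin, held by cytoplasmic scaffolds. Desmosomes rivet cells together through cadherins (desmogleins and desmocollins) that plakoglobin, plakophilins and desmoplakin link to the keratin filaments.

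Of the 34 genes, 6 fell and 1 rose in CYR61-expressing cells by edgeR's quasi-likelihood test at an adjusted p of 0.05. The 6 are 17.6% of the genes, beside 4.56% of all tested genes called lower. The 1 is 2.94%, beside 1.83% of all tested genes called higher. In either direction 6.39% of all tested genes were called. The calls of each class below are to be read against these shares, and the classes are too small to be ranked by them. The listed genes were chosen with earlier results of these data known. Their shares beside those of all tested genes therefore cannot show that they changed more often than other genes. All tested genes also include genes under the CPM threshold of the list. A lower level in these bulk libraries can come from fewer cells of a kind or from less RNA per cell, and these cannot be told apart. The genes that fell were the claudins CLDN1, CLDN4 and CLDN7, the keratins KRT34 and KRT80 and the transcription factor gene ELF3. PKP2, a desmosomal plakophilin, rose. With the replicate number fitted as a block, only CLDN1 and KRT34 of these 7 genes were called. Of all tested genes, 2.66% were then called lower and 0.417% higher. The median log2 fold change of the 34 was -0.17, against -0.0057 for all tested genes. With the GC trend removed, 10 of the 34 were lower (29.4%, beside 13.2% of all tested genes) and 6 higher (17.6%, beside 14.8%; 28% of all tested genes in either direction), and the 7 genes above were among them. At an unadjusted edgeR p under 0.05, 12 of the 34 were lower and 4 higher, beside 13.2% and 9.77% of all tested genes; the classes' counts at that threshold are to be read against these shares. Without vector 1, 3 of the 34 were lower and 0 higher, beside 2.91% and 0.802% of all genes tested then. Without CYR61 2, 9 were lower and 0 higher, beside 6.09% and 4.13%. The vector and CYR61 values did not overlap for 15 genes that were lower (44.1%, beside 27.7% of all tested genes) and 7 that were higher (20.6%, beside 23.9%; 51.5% in either direction).

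**Figure D1:**
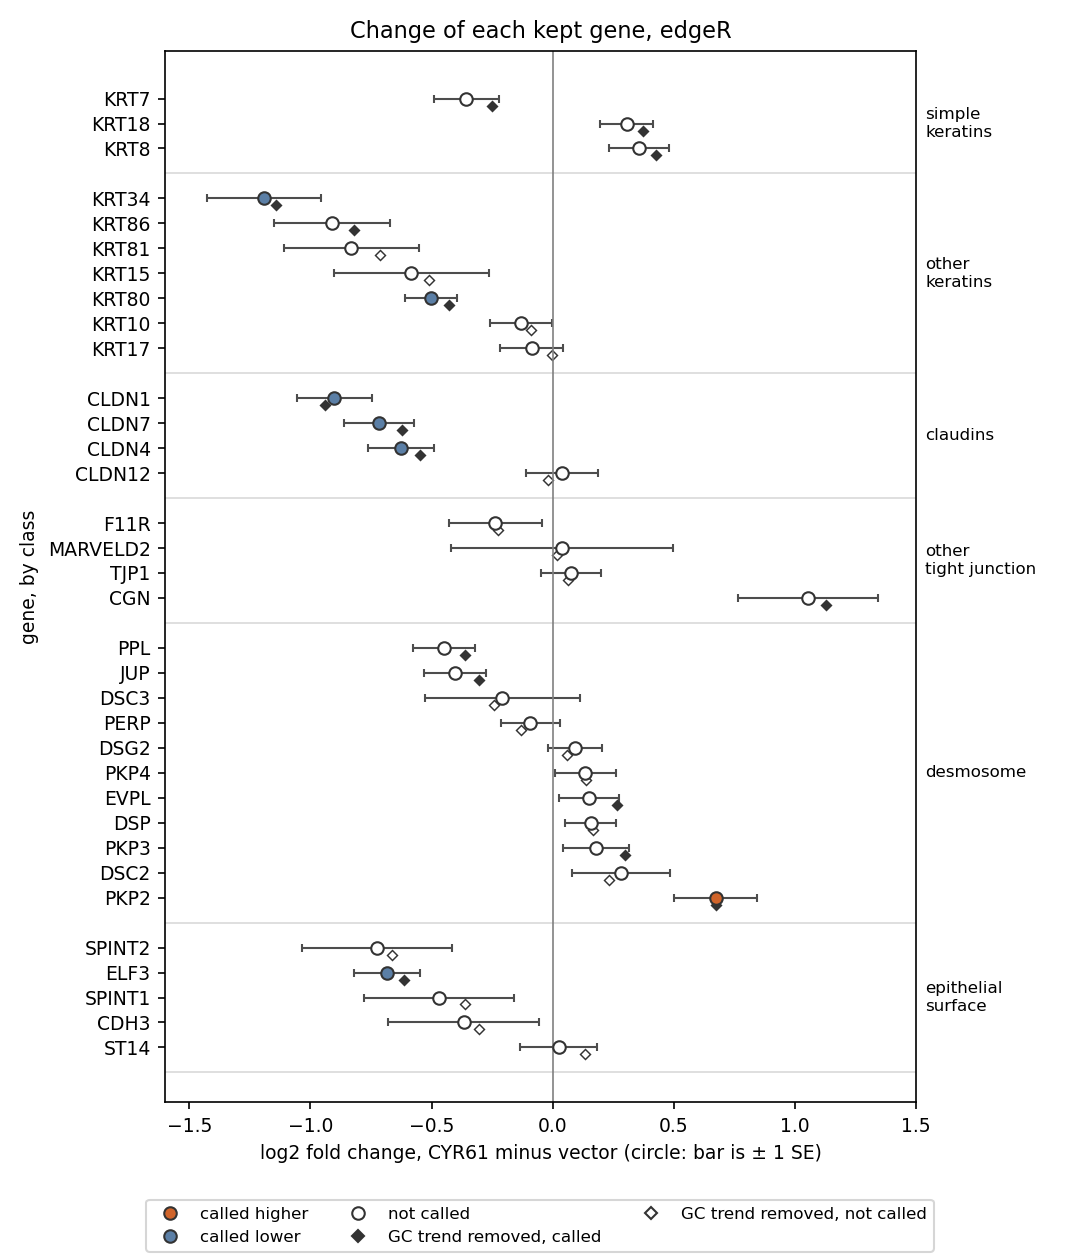
Log2 fold change (CYR61 minus vector) of the 34 genes by class; circles with bars of 1 SE are the edgeR fit, filled where called, and diamonds are the fit with the GC trend removed, filled where called. Of the claudins 3 and of the other keratins 2 are called lower, and PKP2 is called higher.

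The claudins, whose extracellular loops form the paracellular seal, had 3 calls among 4 kept genes, beside 6.39% of all tested genes. The same 3 were called with the GC trend removed, beside 28% of all tested genes. All 3 fell and 0 rose by edgeR, and DESeq2 and limma-voom called the same numbers; at an unadjusted p under 0.05, 3 were lower and 0 higher. The median log2 fold change was -0.67. CLDN1, a barrier-forming claudin (ENSG00000163347, hg38 chr3:190305701-190322475, minus strand), was at 33 and 33.8 CPM in the vector libraries and 16.3 and 19.5 CPM in the CYR61 libraries. Both CYR61 libraries lay well below both vector libraries. The means were 33.4 ± 0.585 and 17.9 ± 2.23 CPM (SD, n = 2 each), and the fold change was -0.90 on the log2 scale with an SE of 0.16 (edgeR adjusted p = 0.00823), or 1.87-fold lower. CLDN1 was called in each of the other fits without a minimum fold and without each library in turn.

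CLDN7, which is found along the lateral membrane of many simple epithelia (ENSG00000181885, chr17:7259903-7263983, minus strand), was at 40.6 and 35.5 CPM with vector and 22.9 and 23.3 CPM with CYR61. The CYR61 values were nearly equal and lay below both vector values. Its means were 38 ± 3.6 and 23.1 ± 0.296 CPM (SD, n = 2 each). The log2 fold change was -0.72 (SE 0.15, edgeR adjusted p = 0.0176); without vector 1 it was -0.62 and no longer called (adjusted p = 0.139). CLDN7 shares exon sequence with ENSG00000262302 on its strand and with ELP5 on the other; the summed CPM with ENSG00000262302 was 40.8 and 35.6 with vector and 22.9 and 23.3 with CYR61. Reads of ELP5 may be mixed with those of CLDN7. The summed CPM of CLDN7 and ELP5 was 88.3 and 78.1 with vector and 70.2 and 70.3 with CYR61. The log2 ratio of means was -0.24. ELP5 alone was at 47.7 and 42.7 CPM with vector and 47.3 and 47 CPM with CYR61 (log2 fold change 0.06, not called). CLDN4, a sealing claudin (ENSG00000189143, chr7:73799542-73832693, plus strand), was at 62 and 54.8 CPM with vector and 36 and 39.7 CPM with CYR61. Again the groups did not overlap. Means were 58.4 ± 5.08 and 37.8 ± 2.66 CPM (SD, n = 2 each). On the log2 scale CLDN4 fell by 0.63 (SE 0.14, edgeR adjusted p = 0.024), and the call was lost without vector 1 (-0.54, adjusted p = 0.185) or without CYR61 1 (-0.54, adjusted p = 0.0879).

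CLDN12, an atypical claudin without the usual C-terminal PDZ-binding motif, was at 31.4 and 32 CPM with vector and 35.6 and 29.3 CPM with CYR61. Its groups overlapped, and the log2 fold change was 0.04 (SE 0.15, edgeR adjusted p = 0.915). CLDN12 shares exon bases on its strand with GTPBP10 and CDK14, so its reads may be shared. Per kilobase of exon, CLDN7 had the highest level of the class (mean 12.3 CPM per kilobase), then CLDN4 (10.2), CLDN1 (7) and CLDN12 (4.76). The summed level of the 4 was 43.1 and 39.9 CPM per kilobase with vector and 26.6 and 27.5 with CYR61. CLDN12 took 10.8% and 11.9% of that sum with vector and 19.9% and 15.8% with CYR61. CLDN3 (0.159 CPM), CLDN6 (0.236 CPM) and CLDN11 (0.206 CPM), the other listed claudins, were under the threshold and were not tested. CLDN3 lies near CLDN4 on chromosome 7, from 73768997 to 73770270, and stayed at no more than 0.317 CPM in any library.

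ELF3, an ETS family transcription factor gene of epithelial cells (ENSG00000163435, chr1:202007945-202017188, plus strand), was at 117 and 97.8 CPM with vector and 61.7 and 72 CPM with CYR61. The CYR61 values were both below the lower vector value. Means were 107 ± 13.4 and 66.9 ± 7.25 CPM (SD, n = 2 each). ELF3 fell by 0.68 on the log2 scale (SE 0.14, edgeR adjusted p = 0.0173), and its value was -0.55 without vector 1, where it was not called (adjusted p = 0.121).

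**Figure D2:**
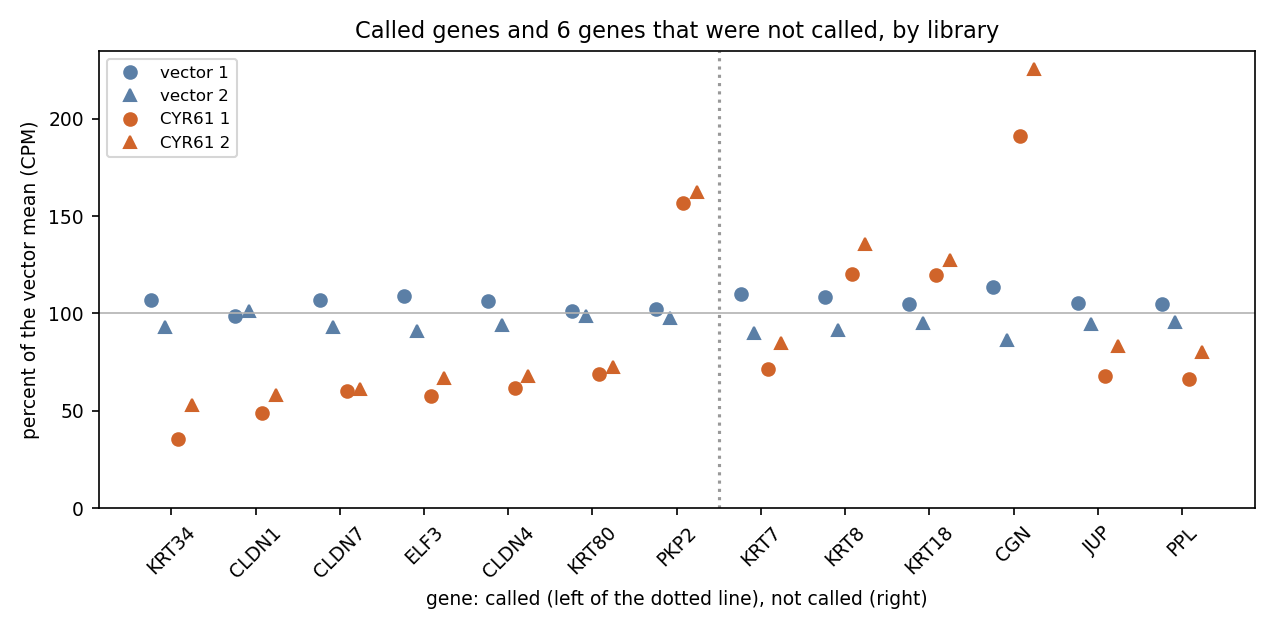
CPM of each library as a percent of the mean of the 2 vector libraries, for the 7 called genes (left of the dotted line) and 6 genes that were not called (right); colours mark the groups and symbols the replicate number. For all 13 genes the CYR61 points lie on one side of the vector points, as they do for 51.5% of all tested genes. The 6 genes on the right were picked by name, and the groups overlap for other genes that were not called. For KRT7 and KRT8 the gap between the groups is smaller than the spread within the vector group.

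The sequence before the RefSeq transcript start is shown for the genes that fell and had an entry. Whether these genes share regulation was not tested. RefSeq promoter windows (GRCh38.p14) matched 25 of the 43 listed genes by symbol, 19 of the 34 kept genes and 5 of the 7 called genes; KRT80 and PKP2 had none. In the 250 bases before the start, 4 motifs were searched on both strands: the E-box CACCTG, which SNAI and ZEB repressors bind, the AP-1 motif TGANTCA, the TEAD motif GGAATG and the ETS core GGAAG. No motif contains another. Capitals mark a match. For CLDN1, CLDN7 and KRT34, the longest stretch of the window outside GENCODE exons is printed. The CLDN7 window lies within the GENCODE span of its gene, 7259903 to 7263983, between exons. Of the CLDN1 window, 150 of 250 bases lie under exons of CLDN1 and CLDN16, and of the KRT34 window 97 lie under KRT34 exons. For ELF3 and CLDN4, whose windows lie under GENCODE exons (of ELF3 and ELF3-AS1, and of CLDN4), 30 bases around each E-box or AP-1 match are printed.
CLDN7, chr17:7263214-7263463, minus strand: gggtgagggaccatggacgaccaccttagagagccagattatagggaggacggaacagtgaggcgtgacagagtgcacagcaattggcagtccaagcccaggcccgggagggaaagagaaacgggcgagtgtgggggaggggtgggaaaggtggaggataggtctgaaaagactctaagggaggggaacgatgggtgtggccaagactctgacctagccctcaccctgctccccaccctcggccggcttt
CLDN1, chr3:190322476-190322540, minus strand: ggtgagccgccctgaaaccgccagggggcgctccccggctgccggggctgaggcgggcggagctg
KRT34, chr17:41382404-41382556, minus strand: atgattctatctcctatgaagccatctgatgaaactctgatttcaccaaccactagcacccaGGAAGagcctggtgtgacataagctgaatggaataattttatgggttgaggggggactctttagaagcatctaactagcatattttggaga
CLDN4, chr7:73830746-73830775, plus strand: ctgggctgTGATTCAgtgtctgtctcccgg
CLDN4, chr7:73830824-73830853, plus strand: agactggatagTGACTCAgggacccggggc
ELF3, chr1:202010455-202010484, plus strand: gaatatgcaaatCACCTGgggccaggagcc

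The 5 windows did not share a motif. The CLDN4 window held 2 AP-1 matches and 1 ETS match, the ELF3 window 1 E-box, the KRT34 window 2 ETS matches, 1 of them in the printed stretch, and the CLDN1 and CLDN7 windows none of the 4. Over the 19 kept genes with a window, 26.3% held the E-box, 10.5% the AP-1 motif, 0% the TEAD motif and 63.2% the ETS core. The shares over 27305 promoters of the same length were 17.5%, 6.6%, 11.9% and 65.1%.

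The simple keratins KRT8 and KRT18 were the most abundant of the 34 genes per kilobase. KRT8, the type II partner (ENSG00000170421, chr12:52897187-52949954, minus strand), was at 2594 and 2182 CPM with vector and 2867 and 3243 CPM with CYR61. KRT18, its type I partner (ENSG00000111057, chr12:52948871-52952901, plus strand), was at 1168 and 1055 CPM with vector and 1330 and 1418 CPM with CYR61. For both genes the CYR61 libraries were above both vector libraries, by less than the adjusted test requires. KRT8, the gene of highest level per kilobase in its class, had means of 2388 ± 291 and 3055 ± 266 CPM (SD, n = 2 each). The log2 fold change was 0.36 for KRT8 (SE 0.12, edgeR adjusted p = 0.117) and 0.31 for KRT18 (SE 0.11, edgeR adjusted p = 0.128). Both were called with the GC trend removed, at 0.43 (adjusted p = 0.00134) and 0.37 (adjusted p = 0.00147). Their exons overlap on opposite strands over 525 bases, and 22.1% of the 50-base stretches of the KRT8 transcript and 21.7% of those of KRT18 also occur in other genes, mostly pseudogenes outside the files, so part of their reads may be shared.

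KRT7, the type II keratin of bile ducts and other glandular epithelia (ENSG00000135480, chr12:52232520-52252186, plus strand), was at 1118 and 918 CPM with vector and 726 and 865 CPM with CYR61. All CYR61 values were below all vector values, with the nearest pair close together. KRT7 was at -0.36 on the log2 scale (SE 0.13, edgeR adjusted p = 0.142), and -0.25 with the GC trend removed, where it was called (adjusted p = 0.0154). KRT19, the type I keratin of bile ducts, had at most 2 counts in any library. In this class 0 of 3 genes were called by edgeR, DESeq2 or limma-voom, while 2 were higher and 1 lower at an unadjusted edgeR p under 0.05.

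Levels per kilobase of exon give each keratin's share of the summed keratin RNA. KRT8 and KRT18 together were 56.2% and 56.7% of the summed level of the 10 kept keratins with vector and 67.2% and 66.2% with CYR61. KRT7 was 20.8% and 19.7% with vector and 14.4% and 15.4% with CYR61, and KRT80 was 7.5% and 8.44%, then 5.43% and 5.12%. The groups did not overlap in any of these shares. The ratio of summed type I to summed type II level was 0.747 and 0.771 with vector and 0.861 and 0.822 with CYR61. KRT18 over KRT8 was 0.963 and 1.03 with vector and 0.992 and 0.935 with CYR61, so the pair itself kept its ratio within the spread of the libraries. The absolute levels depend on the length used: per kilobase of the longest transcript, the KRT8 and KRT18 share was 57.7% and 58.4% with vector and 68.7% and 67.6% with CYR61, while KRT18 over KRT8 was 0.599 to 0.663.

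**Figure D3:**
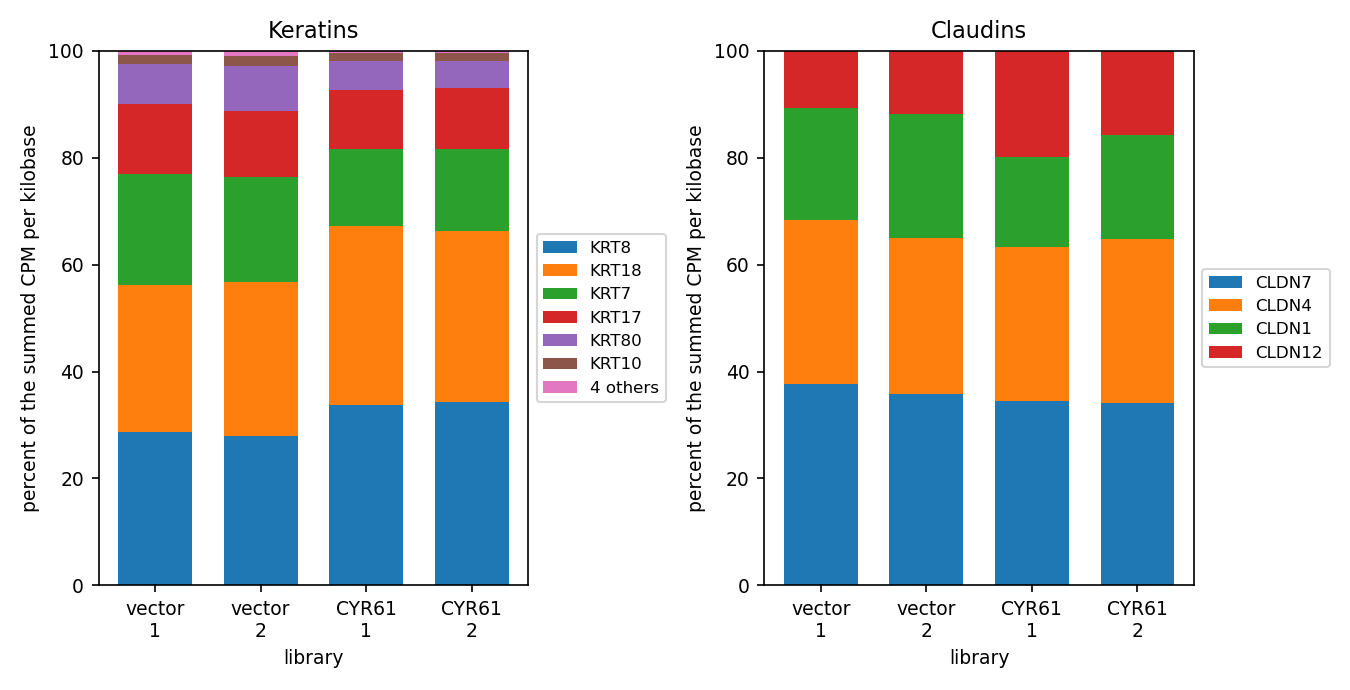
Percent of the summed CPM per kilobase of exon in each library, for the 10 kept keratins (left, 4 of low level joined) and the 4 kept claudins (right). KRT8 and KRT18 are 56.2% and 56.7% of the keratins in the vector libraries and 67.2% and 66.2% with CYR61, and the share of CLDN12 among claudins is higher in both CYR61 libraries.

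The other keratins, of stratified epithelia and hair, were all below 0 in log2 fold change. Of 7 genes, 2 fell and 0 rose by edgeR, as by DESeq2 and limma-voom; at an unadjusted p under 0.05, 4 were lower and 0 higher. The median log2 fold change was -0.58. KRT34, a type I hair keratin (ENSG00000131737, chr17:41377650-41382403, minus strand), was at 10.4 and 9.01 CPM with vector and 3.44 and 5.14 CPM with CYR61. It had the largest fall of the 34 genes, with no overlap between groups. Means were 9.71 ± 0.983 and 4.29 ± 1.2 CPM (SD, n = 2 each). It fell by 1.19 on the log2 scale (SE 0.23, edgeR adjusted p = 0.0157), or 2.29-fold lower, and it was called without each library in turn. Of the KRT34 transcript, 11.4% of 50-base stretches occur in other counted genes, chiefly KRT33B.

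KRT80, a type II keratin found in many epithelia (ENSG00000167767, chr12:52168996-52192000, minus strand), was at 429 and 418 CPM with vector and 291 and 307 CPM with CYR61. The replicates were close together and the groups far apart. Means were 423 ± 8.04 and 299 ± 10.8 CPM (SD, n = 2 each). KRT80 fell by 0.50 on the log2 scale (SE 0.11, edgeR adjusted p = 0.0229). The call was lost without vector 1 (adjusted p = 0.131), vector 2 (0.0963) or CYR61 1 (0.141), at log2 fold changes of -0.48, -0.51 and -0.45. KRT86 and KRT81, type II hair keratins, were low. KRT86 was at 5.63 and 7.2 CPM with vector and 3.12 and 3.76 CPM with CYR61 (log2 fold change -0.91, edgeR adjusted p = 0.0509), and KRT81 at 3.82 and 3.13, then 2 and 1.88 CPM (-0.83, edgeR adjusted p = 0.107). Their groups did not overlap. KRT86 was called with the GC trend removed (adjusted p = 0.0216), without vector 1 (-1.07, adjusted p = 0.0326) and without CYR61 2 (-1.04, adjusted p = 0.0119). The 2 genes are near copies, with 38.4% of the 50-base stretches of KRT81 found in KRT86, so each value alone is uncertain; their summed CPM was 9.45 and 10.3 with vector and 5.12 and 5.64 with CYR61.

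KRT17, a type I keratin of complex epithelia, had the highest level per kilobase of this class (mean 151 CPM per kilobase). It was at 536 and 439 CPM with vector and 425 and 494 CPM with CYR61, with overlapping groups and means of 488 ± 68.5 and 460 ± 48.4 CPM (SD, n = 2 each). Its log2 fold change did not pass the test (-0.09, SE 0.13, edgeR adjusted p = 0.746). KRT10, a keratin of differentiating epidermis, was at 47.2 and 45.6 CPM with vector and 42.9 and 41.9 CPM with CYR61 (-0.13, edgeR adjusted p = 0.588). KRT15, of basal keratinocytes, was at 1.38 to 2.26 CPM over the libraries (-0.58, edgeR adjusted p = 0.31). Neither was called.

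The log2 fold changes of neighbours in the keratin clusters differed in size, and on chromosome 12 also in sign. Differences between neighbours were not tested, and of these keratins only KRT34 and KRT80 were called with the GC trend left in. In the keratin cluster on chromosome 12, from the lowest coordinate up, the log2 fold changes were -0.50 for KRT80, -0.36 for KRT7, -0.91 for KRT86, -0.83 for KRT81, 0.36 for KRT8 and 0.31 for KRT18. KRT18 is the 1 type I gene there. In the type I cluster on chromosome 17 they were -0.13 for KRT10, -1.19 for KRT34, -0.58 for KRT15 and -0.09 for KRT17, and the plakoglobin gene JUP, at higher coordinates, was at -0.40.

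**Figure D4:**
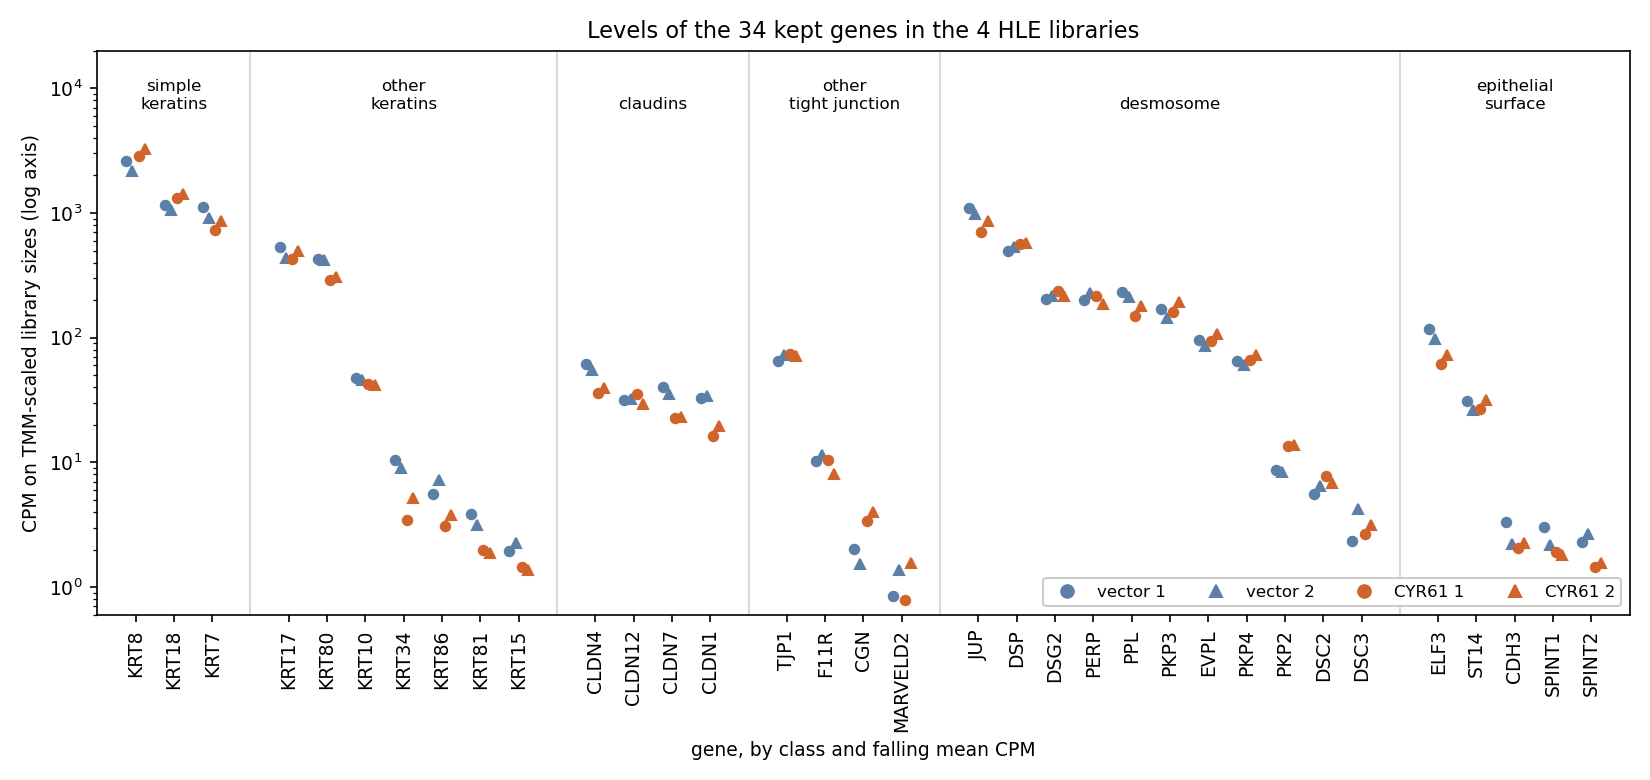
CPM on a log axis for each of the 34 kept genes in the 4 libraries, by class and falling mean; blue is vector, orange CYR61, circles replicate 1 and triangles replicate 2. Levels span from KRT8 at 2182 to 3243 CPM down to MARVELD2 at 0.791 to 1.57 CPM, and the CYR61 points of CLDN4, CLDN7 and CLDN1 lie below their vector points.

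The tight junction genes outside the claudins were not called. By edgeR, DESeq2 and limma-voom 0 of 4 were called, and 1 was higher at an unadjusted edgeR p under 0.05. That gene was CGN, encoding cingulin, which ties the junction plaque to actomyosin (ENSG00000143375, chr1:151510510-151538692, plus strand). It was at 2.02 and 1.54 CPM with vector and 3.4 and 4.01 CPM with CYR61, from 34 to 73 counts a library. Both CYR61 libraries were above both vector libraries. CGN was at 1.06 on the log2 scale (SE 0.29, edgeR adjusted p = 0.0587), the largest positive value among the 34, and it was called with the GC trend removed (1.13, adjusted p = 0.00919) and without CYR61 1 (1.19, adjusted p = 0.0476).

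TJP1, encoding the scaffold ZO-1, had the highest level per kilobase of this class (ENSG00000104067, chr15:29699367-29968865, minus strand). It was at 64.7 and 72.8 CPM with vector and 73.5 and 71.4 CPM with CYR61, with overlapping groups and means of 68.7 ± 5.72 and 72.4 ± 1.44 CPM (SD, n = 2 each). The difference was 0.08 on the log2 scale (SE 0.12, edgeR adjusted p = 0.766). F11R, encoding the adhesion molecule JAM-A, was at 10.3 and 11.5 CPM with vector and 10.4 and 8.02 CPM with CYR61 (-0.24, edgeR adjusted p = 0.51). It shares 1853 exon bases with ENSG00000270149, and their summed CPM was 16.7 and 17.3 with vector and 15.7 and 15 with CYR61. MARVELD2, encoding tricellulin, found where several cells meet, was at 0.849 and 1.36 CPM with vector and 0.791 and 1.57 CPM with CYR61. Here the spread within groups exceeded any difference between them.

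Occludin itself was barely detected. OCLN was at 0.902 and 0.861 CPM with vector and 1.02 and 1.13 CPM with CYR61, and TJP3, encoding the scaffold ZO-3, at 1.7 and 1.31 CPM with vector and 0.326 and 0.627 CPM with CYR61. Both were under the threshold of the list but passed the filter of the test, where neither was called (edgeR adjusted p = 0.727 for OCLN and 0.0608 for TJP3). TJP3 was called lower with the GC trend removed (log2 fold change -1.58, adjusted p = 0.0209). MARVELD3 had at most 4 counts in any library.

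Among desmosome genes, 1 of 11 rose and 0 fell, with a median log2 fold change of 0.14. limma-voom also called 1 higher and 0 lower and DESeq2 called 0; at an unadjusted edgeR p under 0.05, 1 was higher and 2 lower. PKP2, a plakophilin of simple epithelia and heart (ENSG00000057294, chr12:32790745-32896840, minus strand), was at 8.76 and 8.38 CPM with vector and 13.4 and 13.9 CPM with CYR61. The replicates nearly coincided and the groups did not overlap. Means were 8.57 ± 0.268 and 13.7 ± 0.328 CPM (SD, n = 2 each). PKP2 rose by 0.67 on the log2 scale (SE 0.17, edgeR adjusted p = 0.0452), or 1.6-fold. Of its 50-base stretches 7.1% occur in another gene, AC005840.3. This call was lost by DESeq2 (adjusted p = 0.0526). It was lost by edgeR with library size alone (adjusted p = 0.061) and with the replicate number fitted as a block (0.214). It was also lost without each library in turn, and the log2 fold change was 0.65 to 0.71 over 15 settings. The call was kept with the GC trend removed (0.67, edgeR adjusted p = 0.0038).

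The other plakophilins were not called. PKP3, the plakophilin of highest level, was at 171 and 143 CPM with vector and 161 and 194 CPM with CYR61 (log2 fold change 0.18, edgeR adjusted p = 0.472), and was called with the GC trend removed (0.30, adjusted p = 0.0054). PKP4 was at 60.8 to 72.8 CPM (0.14, edgeR adjusted p = 0.561). PKP1, of stratified epithelia, had a mean of 0.0762 CPM and was not tested.

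JUP, encoding plakoglobin, which serves both desmosomes and adherens junctions, had the highest level per kilobase of this class (ENSG00000173801, chr17:41754604-41786931, minus strand). It was at 1090 and 981 CPM with vector and 703 and 865 CPM with CYR61. All CYR61 values were below all vector values. Means were 1036 ± 77.1 and 784 ± 114 CPM (SD, n = 2 each). JUP was at -0.40 on the log2 scale (SE 0.13, edgeR adjusted p = 0.0938), and it was called with the GC trend removed (-0.31, adjusted p = 0.0055) and without CYR61 2 (-0.56, adjusted p = 0.0288). JUP was 49.3% and 46.7% of the summed level per kilobase of the 11 genes with vector and 38.4% and 42.6% with CYR61. PPL, encoding the plakin periplakin, was at 235 and 214 CPM with vector and 148 and 180 CPM with CYR61. Its groups did not overlap. PPL was at -0.45 on the log2 scale (SE 0.13, edgeR adjusted p = 0.0669), called with the GC trend removed (-0.36, adjusted p = 0.00239) and without CYR61 2 (-0.59, adjusted p = 0.0173). The related plakin gene EVPL, encoding envoplakin, was at 96.2 and 86.3 CPM with vector and 94.6 and 108 CPM with CYR61 (0.15, edgeR adjusted p = 0.52), and was called higher with the GC trend removed (0.26, adjusted p = 0.0132).

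DSP, encoding desmoplakin, which anchors keratin filaments, was at 498 and 531 CPM with vector and 568 and 579 CPM with CYR61 (0.16 on the log2 scale, SE 0.11, edgeR adjusted p = 0.417). The CYR61 libraries were above the vector libraries by less than the test requires. The desmosomal cadherin genes lie together on chromosome 18 and were not called. DSG2 was at 206 to 235 CPM over the libraries (0.09, edgeR adjusted p = 0.666), DSC2 at 5.57 to 7.82 CPM (0.28, edgeR adjusted p = 0.446) and DSC3 at 2.34 to 4.26 CPM (-0.21, edgeR adjusted p = 0.752). Per kilobase DSG2 was far above either desmocollin, at a mean of 35.3 CPM per kilobase against 0.534 for DSC2 and 0.439 for DSC3. PERP, a membrane protein gene of desmosomes and a p53 target, was at 201 and 228 CPM with vector and 215 and 187 CPM with CYR61 (-0.09, edgeR adjusted p = 0.708).

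The surface and regulator genes held 1 call, ELF3, with a median log2 fold change of -0.47 over 5 genes. DESeq2 and limma-voom called the same number. ELF3 had the highest level per kilobase of this class, at 64.4% and 64.4% of the summed level with vector and 53.9% and 54.3% with CYR61. ST14, encoding the membrane protease matriptase, was at 31.2 and 26.3 CPM with vector and 26.9 and 31.6 CPM with CYR61 (0.02 on the log2 scale, SE 0.16, edgeR adjusted p = 0.948). The genes of its Kunitz inhibitors were far lower, SPINT1 at 3.03 and 2.17 CPM with vector and 1.91 and 1.82 CPM with CYR61 (-0.47, edgeR adjusted p = 0.402), and SPINT2 at 2.28 and 2.67, then 1.44 and 1.57 CPM (-0.73, edgeR adjusted p = 0.194). Both inhibitors had CYR61 values below all vector values, but neither was called. CDH3, encoding P-cadherin, was at 2.05 to 3.34 CPM (-0.37, edgeR adjusted p = 0.528). EPCAM, an epithelial adhesion molecule gene, was under the threshold at 0.319 and 1.36 CPM with vector and 1.12 and 0.564 CPM with CYR61, with overlapping groups.

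**Figure D5:**
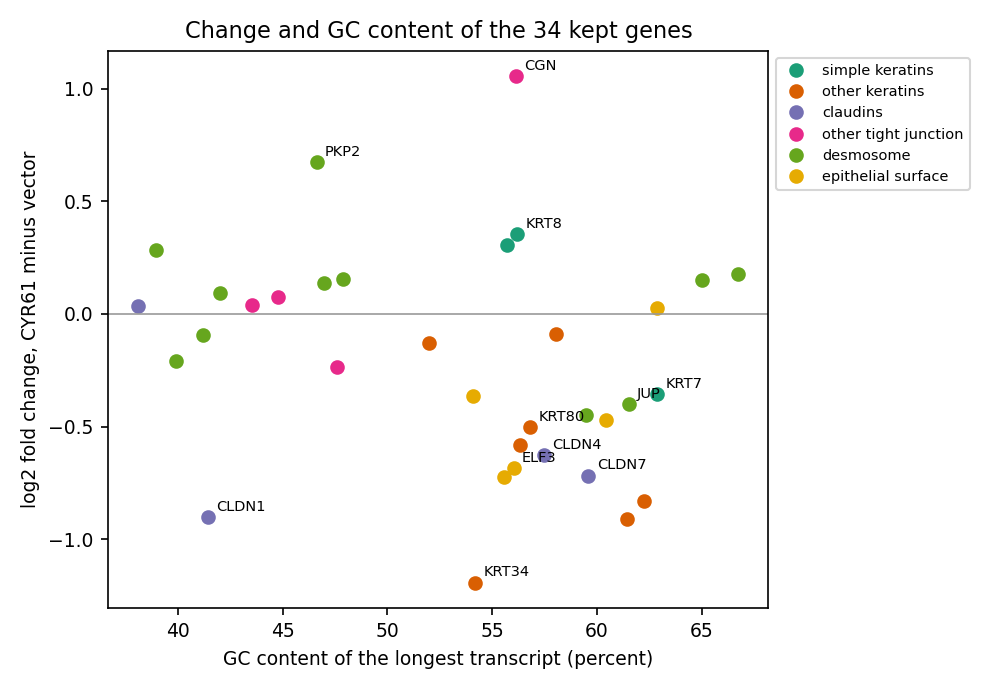
Log2 fold change (CYR61 minus vector) of the 34 genes against the GC content of each gene's longest transcript, coloured by class. The called claudins CLDN4 and CLDN7 lie near KRT8 in GC content but on the other side of 0, and CLDN1, at 41.5% GC, lies well to their left with a fall of the same order.

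GC content moves with the spread within groups, and each change was also fitted with the trend removed. That fit also removes any difference between the groups that tracks GC content. The part of GC content in each change was therefore not tested. The GC content of the called genes ranged from 41.5% (CLDN1) to 59.6% (CLDN7), and the median over the 34 genes was 55.9%, against 48.9% for all tested genes. CLDN1 changed by -0.94 with the trend removed, CLDN4 by -0.55, CLDN7 by -0.62, ELF3 by -0.61, KRT34 by -1.14 and KRT80 by -0.43. Each of these 6 was called in that fit.

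A wider list of 100 genes of the same structures, none of them among the 43, was read beside them. Of the 50 that were tested, 3 fell and 2 rose (6% and 4%, beside 4.56% and 1.83% of all tested genes), and the median log2 fold change was -0.15. The genes that fell were NES, encoding the intermediate filament protein nestin (-1.25, edgeR adjusted p = 0.00503), COL17A1, a hemidesmosome collagen (-1.28, edgeR adjusted p = 0.03), and ARHGEF2, of the tight junction and polarity genes (-0.67, edgeR adjusted p = 0.00783). LMNB1, encoding lamin B1, rose (0.46, edgeR adjusted p = 0.0342), as did AMOTL1, encoding an angiomotin-like junction protein (0.47, edgeR adjusted p = 0.0462). With the replicate number fitted as a block, NES and COL17A1 stayed called, and ARHGEF2 (edgeR adjusted p = 0.06), LMNB1 and AMOTL1 did not. AMOTL1 was not called with library size alone (edgeR adjusted p = 0.0537) or a filter of 5 CPM in 2 libraries (0.0503). COL17A1 was not called without vector 1 (adjusted p = 0.139) or by DESeq2 (adjusted p = 0.0644). LMNB1 and AMOTL1 were not called without any 1 library: LMNB1 without vector 1 (adjusted p = 0.188), vector 2 (0.228), CYR61 1 (0.0895) or CYR61 2 (0.0776), and AMOTL1 without vector 1 (0.177), vector 2 (0.296), CYR61 1 (0.138) or CYR61 2 (0.0627). With the GC trend removed, 8 of the 50 were lower and 5 higher (16% and 10%, beside 13.2% and 14.8% of all tested genes), so the share of higher calls was below that of all genes. Of these, PRKCI (-0.40) and MAGI1 (-0.37) were lower and PALS1 (0.39) and NECTIN2 (0.49) higher in that fit and not called with the trend left in, and are named after their values were seen.

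Among the other filament genes of highest level, the log2 fold change was -0.17 for VIM (mean 1832 CPM with vector and 1633 CPM in CYR61 cells), -0.07 for LMNA and 0.19 for LMNB2, which was called higher with the GC trend removed. Of the adherens junction partners, VCL was at -0.01, CTNNA1 at -0.06 and the beta-catenin gene CTNNB1 at 0.21. PLEC, the plakin that links filaments to hemidesmosomes, was at -0.29, CD151 at -0.22 and DST at -0.30, called lower with the GC trend removed. YBX3 was at 0.01, SYMPK at 0.05 and AMOTL2 at -0.43 (edgeR adjusted p = 0.0587), the last called lower with the GC trend removed. None of these was called by edgeR with the trend left in. Of 27 further keratins 3 were tested, KRT16 (-0.65, edgeR adjusted p = 0.0803; called lower with the GC trend removed, -0.56, adjusted p = 0.0157), KRT14 (-1.15) and KRT9 (0.56), and of 12 further claudins 4 were, among them CLDN15 (-0.43), CLDN9 (-1.13) and CLDN23 (0.21); 0 of these 7 were called by edgeR with the trend left in. The desmosome gene CDSN (0.05) was not called either, and 0 of 7 surface serine protease genes were expressed enough to be tested.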

How the data were processed

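Total RNA of 4 libraries was sequenced. For each library the authors deposited estimated counts of 20286 Ensembl genes, of which 11.2% to 12% were not whole numbers. Per the submitters' processing notes the build was hg38 and the tools TopHat2 2.1.1, Cufflinks 2.2.1 and Cuffdiff 1.3.0. Which program counted, on which annotation release and with which strand setting, is not stated in them. Reads of genes that overlap on opposite strands therefore cannot be separated. Counts were rounded, filtered with filterByExpr, scaled by TMM and fitted on group alone with edgeR 4.0.16 (glmQLFit, glmQLFTest, R 4.3.3), with Benjamini-Hochberg adjustment over 12698 genes and a threshold of 0.05. SEs were taken as the size of the log2 fold change over the root of F. The trend on GC content was a natural spline with 5 degrees of freedom per library. The alternatives used DESeq2 1.42.0, limma-voom (limma 3.58.1), other scalings and filters, a replicate block, a minimum fold of 1.5 and each library left out. Symbols were matched for 20228 identifiers, and positions and lengths came from GENCODE 29 on GRCh38. Copies were searched by 50-base stretches. The fit was tested on simulated counts. All kept genes are named; called genes and the highest per kilobase in each class have full statistics. The genes and lists were chosen with earlier results of these data known. Of the wider list, called genes and the 3 of highest level in each sublist are named, apart from an item that is not reported here.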

Additional observations from a re-analysis of the deposited data

How the results depend on the processing

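The counts of calls depended on the processing. Over all tested genes edgeR called 811; the number was 1677 with no filter, 391 with the replicate block, 3552 with the GC trend removed, 2036 with both the block and the trend removed, and 481 to 1331 when 1 library was left out. Listed genes called lower numbered 6, against 10 with no filter, 2 with the replicate block (CLDN1 and KRT34), 10 with the GC trend removed and 3 to 9 with 1 library left out. Listed genes called higher numbered 1, against 0 with DESeq2, library size alone or the replicate block, 3 with no filter, 6 with the GC trend removed, 5 with both the block and the trend removed, and 0 to 1 with 1 library left out. The wider list had 5 calls, against 8 with no filter, 3 with the stricter filter, 2 with the replicate block, 13 with the GC trend removed, 11 with both, and 2 to 7 with 1 library left out. The share of lower calls over all genes was 71.4%, 47.2% with the GC trend removed, 50% with the block as well, 62.3% with DESeq2, 61.4% with no filter and 86.4% with the replicate block. Same-numbered libraries deviated in opposite directions (r = -0.71 across genes), so the shared numbers were not taken as pairing. A block with crossed numbers, chosen after seeing the data, gave 5624 calls over all genes (21.6% of all tested genes higher and 22.6% lower). Among the listed genes it gave 11 lower and 7 higher, and 24 calls in the wider list. Of the genes tested, 4.03% were called higher and 6.4% lower with no filter, and 0.417% and 2.66% with the replicate block. With both the block and the trend removed the shares were 8.02% and 8.02%, and with DESeq2 2.8% and 4.64%. With library size alone they were 1.28% and 4.09%, and with the stricter filter 1.79% and 5.35%.

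No call among the 34 genes changed sign. The sign turned for some genes that were not called. MARVELD2 was at -0.012 with limma-voom and -0.49 to 0.50 with 1 library left out. CLDN12 was at -0.021 with the GC trend removed, -0.022 with the replicate block as well, and -0.10 to 0.17 with 1 library left out. Leaving out 1 library gave -0.22 to 0.064 for KRT17, -0.0063 to 0.17 for TJP1, -0.56 to 0.31 for DSC3, -0.18 to 0.0083 for PERP and -0.091 to 0.15 for ST14. With a minimum fold of 1.5, the calls of all 7 genes were lost. Genes near 1 CPM rest on few counts, and their differences were not detectable at this depth unless large.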
